A study of Mus musculus with 4 samples.

Results

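The cytotoxic effector genes examined here are Gzma, Gzmb, Gzmc, Gzmk, Prf1, Fasl and Nkg7, and their H3K27ac peaks in mouse Th17 cells were taken as those that overlap a gene or the 50000 bp on each side of it. Of the 56285 peaks deposited, 56 met this rule, and 6 of them lay in the overlapping windows of Gzmb and Gzmc. Killer cells load lytic granules with perforin, encoded by Prf1, which opens the target cell membrane, and with granzymes, the serine proteases that then act inside the target. NKG7 is a granule membrane protein needed for efficient granule release, and FAS ligand, encoded by Fasl, is a surface protein of the TNF family that triggers death through the receptor FAS. CD8+ T cells and NK cells are the main users of these genes, and CD4+ T cells can switch on some of them. Acetylation of lysine 27 of histone H3 (H3K27ac) is found at active promoters and enhancers.

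Th17 cells are the CD4+ helper T cells that secrete IL-17, and these were raised in culture from naive CD4+ T cells of the strain C57BL/6. The treatment labels give 72 h of activation by 0.25 µg/mL anti-CD3ε and 1 µg/mL anti-CD28 in the presence of 20 ng/mL IL-6 and 0.1 ng/mL TGF-β, while the growth text puts TGF-β between 0.1 and 5.0 ng/mL. Each of 2 biological replicates gave an H3K27ac library and an input DNA library. The labels give neither age nor sex of the mice nor the purity of the cultures. One list of peak positions was given for the 2 replicates, with no score and no value per library, so no value has a replicate error, read depth is unknown and no test was made. In a mixed culture, fewer cells with the mark and less mark per cell cannot be told apart. Of the markers chosen for the labelled cell type, all 6 CD4 T and Th17 markers with a known start (Cd3e, Il17a, Il17f, Il23r, Ccr6 and Batf) had a peak within 1000 bp of it, against 55.0% of all genes. With the midpoint of a peak required there, 2 of the 6 did, and no share of all genes is given for this rule. The rule can leave out wide peaks that cover a start. The peak of 5670 bp over the start of Il17f had its midpoint 1141 bp from that start. Cd4, for which no start was used, had 8618 bp of peak inside the gene.

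An H3K27ac peak lay over the transcription starts of Gzmb, Prf1, Fasl and Nkg7, and none was called at those of Gzma, Gzmk and Gzmc. A peak lay within 1000 bp of the start in 4 of 7 genes, against a background of 55.0% of the 17273 protein-coding genes with a known start, and it covered the start itself in the same 4, against 50.7%. The count is near the background and is no result about the 7 genes as a group. It was also 4 within 500 bp (54.3% of all genes) and with peaks of at least 500 bp (51.5%), 5 within 2500 bp (56.5%), where Gzmk joined, and 3 with peaks of at least 1000 bp (44.9%), where Prf1 dropped out. All 7 genes had at least 1 peak in the window, against 77.9% of genes. That window is the one used to choose the peaks, so this count is no result about the 7 genes. In 6 of 7, all but Gzmc, a start was the nearest protein-coding start of at least 1 peak, against 61.8%. By nearest gene body Gzma had 0 of the window peaks, since its single peak overlapped Cdc20b. The bases just before the starts of the 4 genes with a start peak, and of Gzmc as a gene of the Gzmb cluster with none, are shown to place the peaks on the sequence they cover. They are RefSeq sequences of GRCm38.p6, each the 250 bases before the start, read 5′ to 3′ on the strand of the gene, with capitals for the matches to the motifs described after them.
Gzmb: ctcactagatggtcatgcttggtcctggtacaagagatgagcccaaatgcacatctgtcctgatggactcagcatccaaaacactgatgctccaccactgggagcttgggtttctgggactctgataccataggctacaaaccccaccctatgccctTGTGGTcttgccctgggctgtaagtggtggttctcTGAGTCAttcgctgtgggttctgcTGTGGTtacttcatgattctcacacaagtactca
Prf1: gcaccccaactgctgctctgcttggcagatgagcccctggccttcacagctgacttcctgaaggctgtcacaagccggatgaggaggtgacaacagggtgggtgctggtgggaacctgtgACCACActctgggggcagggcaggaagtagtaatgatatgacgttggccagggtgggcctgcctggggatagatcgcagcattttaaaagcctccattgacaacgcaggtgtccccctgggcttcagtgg
Fasl: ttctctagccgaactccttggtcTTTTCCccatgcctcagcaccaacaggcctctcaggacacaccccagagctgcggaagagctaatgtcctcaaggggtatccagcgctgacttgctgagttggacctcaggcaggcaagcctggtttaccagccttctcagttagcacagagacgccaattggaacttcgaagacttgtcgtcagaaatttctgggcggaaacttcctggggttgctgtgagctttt
Nkg7: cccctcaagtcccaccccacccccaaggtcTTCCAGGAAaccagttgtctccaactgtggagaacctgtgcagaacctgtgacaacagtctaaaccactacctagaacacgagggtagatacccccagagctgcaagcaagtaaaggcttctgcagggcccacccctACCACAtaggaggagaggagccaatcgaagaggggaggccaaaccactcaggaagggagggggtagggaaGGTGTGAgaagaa
Gzmc: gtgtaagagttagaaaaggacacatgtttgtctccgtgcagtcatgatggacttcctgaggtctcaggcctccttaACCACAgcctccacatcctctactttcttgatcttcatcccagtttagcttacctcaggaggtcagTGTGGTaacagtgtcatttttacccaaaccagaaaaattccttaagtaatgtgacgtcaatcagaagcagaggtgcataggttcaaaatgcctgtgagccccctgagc

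These stretches are chr14:56262335-56262584 on the minus strand for Gzmb, chr10:61297586-61297835 on the plus strand for Prf1, chr1:161788496-161788745 on the minus strand for Fasl, chr7:43436888-43437137 on the plus strand for Nkg7 and chr14:56234658-56234907 on the minus strand for Gzmc. The motifs were searched as plain letters on both strands of the 300 bases from 250 before to 50 after each start, and positions count back from the base before the start as -1. The Gzmb promoter held the AP-1 motif TGANTCA at position -58, found in 7.04% of 21044 RefSeq promoters, between RUNX motifs (TGTGGT) at -93 and -34. A RUNX motif was also present at Gzma, Gzmc, Prf1 and Nkg7, making 5 of 7 genes, against 14.8% of all promoters. Its presence did not follow the peaks, since Gzma and Gzmc had the motif and no start peak while Fasl had a start peak and no match in this window. The T-box motif GGTGTGA (3.67% of promoters) was found at Nkg7, at position -13, and at Gzmk, at -75. The STAT motif TTCNNNGAA (7.76%) lay at -220 in Nkg7 and at position 38, past the start, in Gzmb, a stretch that is not printed. The NFAT motif GGAAAA (22.3%) was found at Gzma and Fasl. No 2 motif matches overlapped in the sequences of the 7 genes. A match of letters is no evidence that a factor binds there.

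**Figure D1:**
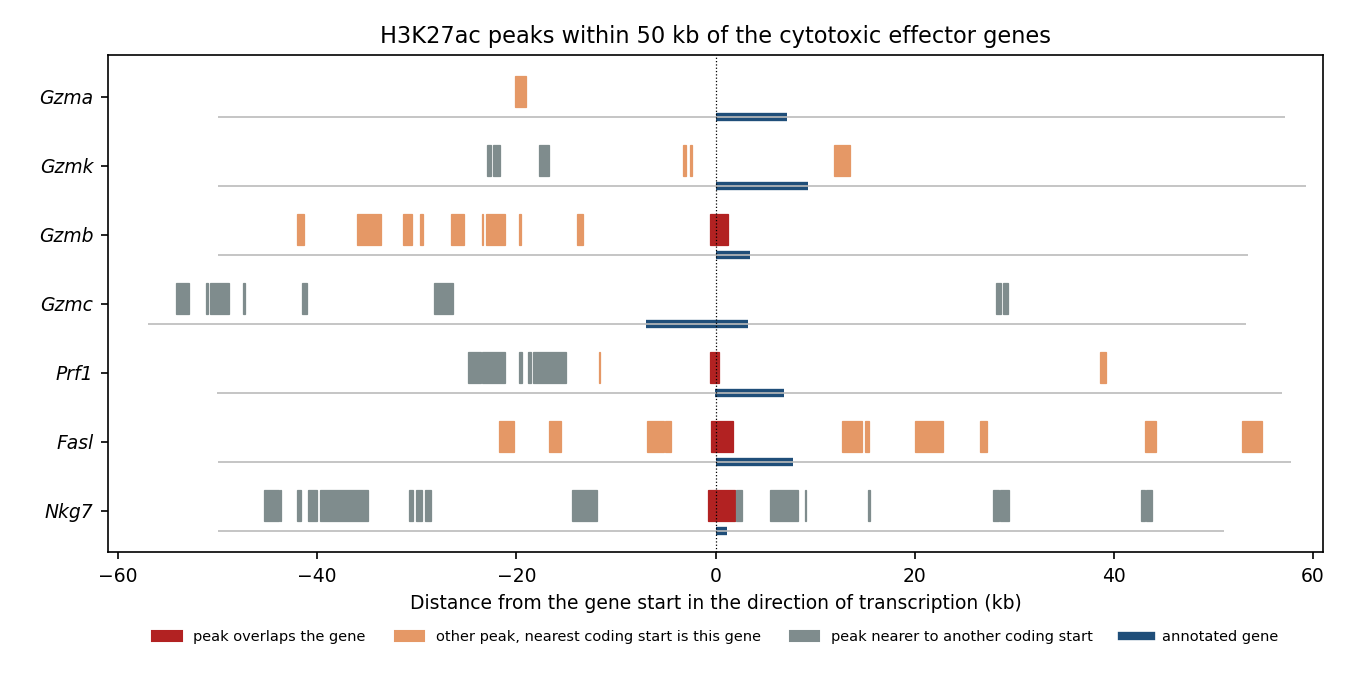
Positions of the H3K27ac peaks in the windows of the 7 genes, as distance from the gene start in kb in the direction of transcription, with each gene as a blue bar and its window as a grey line. Red boxes are peaks that overlap the gene, orange boxes are other peaks whose nearest protein-coding start is that gene and grey boxes are nearer to another one; the 10 peaks of Gzmb lie at its start and upstream, while 17 of the 18 at Nkg7 are nearer to other genes.

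Gzmb encodes granzyme B, a protease that cleaves after aspartate and activates caspases in the target cell. The gene lies on chromosome 14 (56258836 to 56262334, minus strand, 3499 bp). Its start was covered by a peak of 1876 bp (56261061 to 56262936) that reached 602 bp upstream and 1273 bp into the gene. A group of 9 further peaks followed upstream of the gene, with edges between 13328 and 42044 bp from the start, widths of 144 to 2389 bp and a summed width of 8450 bp. The widest of them, 2389 bp, lay at 56295935 to 56298323, and the next, 1918 bp, at 56283495 to 56285412. No peak lay in the 50000 bp downstream of Gzmb. In the whole window 10326 bp were covered, more than in 74.2% of 21519 protein-coding genes, and all 10 peaks had Gzmb as their nearest protein-coding start. By the length of the peaks nearest to its own start Gzmb stood higher, above 93.7% of genes. With non-coding genes counted too, a choice made after the data were seen, only the start peak was nearest to Gzmb, because the pseudogene Gm48200 (56275754 to 56276957) lies beneath the first peak of the upstream group.

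Gzmc, a granzyme gene next to Gzmb, had no peak inside it (56231397 to 56241647, minus strand). The RefSeq start used for it, 56234657, lies inside this annotated span, and no peak lay at the outer end either. The nearest peak to its start, 26404 bp away, was the start peak of Gzmb. Its window held 8 peaks and 6980 bp, above 62.0% of genes, but 6 of the peaks were nearest to Gzmb and 2, of 532 and 450 bp, lay inside Gzmf. No peak was nearest to Gzmc itself. Among the other granzyme genes of this cluster, Gzmd and Gzme had no peak within 50000 bp, the nearest peaks to the starts of Gzmg and Gzmn lay 45696 and 30676 bp away, and Gzmf had the 2 peaks named and none nearer to its start than 4964 bp. The promoters of Gzmc to Gzmg were much alike, and that of Gzmn was not. The Gzmc promoter shared 86.1 to 86.9% of aligned bases with those of Gzmd, Gzme, Gzmf and Gzmg, and the promoters of Gzmd and Gzme shared 94.0% with each other, while those of Gzmb and Gzmn shared 59.6 and 59.8% with Gzmc. The gene bodies were not aligned. How reads that match several places were treated is not given in the sources used here, so the missing peaks at Gzmc to Gzmg are uncertain, and the part of this in the result was not tested.

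Gzma and Gzmk lie side by side on chromosome 13, and neither had a peak inside the gene. Gzma (113093824 to 113100981, minus strand) encodes granzyme A, a protease that cleaves after basic residues, and had the shortest covered length of the 7 in windows of this size. A single peak of 1104 bp (113120019 to 113121122) lay in its window, 19038 bp upstream of the start, and it overlapped the outer end of Cdc20b, a longer gene whose annotated span (113034975 to 113121019) also contains Gzma. The window length of Gzma exceeded that of 27.9% of genes. This place among the 7 depends on the flank: with 20000 bp Gzma had 963 bp and Gzmc 587 bp, and with 100000 bp Gzma had 6693 bp and Gzmk 5489 bp. Gzmk (113171630 to 113180965, minus strand), which encodes granzyme K, had 6 peaks and 4385 bp, above 48.6% of genes. The closest were 2 narrow ones of 213 and 338 bp, starting 2387 and 2968 bp upstream of the start. A wider one of 1649 bp (113167440 to 113169088) lay past the 3′ end of the gene. The other 3 peaks, 2185 bp in sum, were nearer to Esm1. No peak lay within 1000 bp of the start of Gzma or Gzmk, where Gzmb had its start peak.

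**Figure D2:**
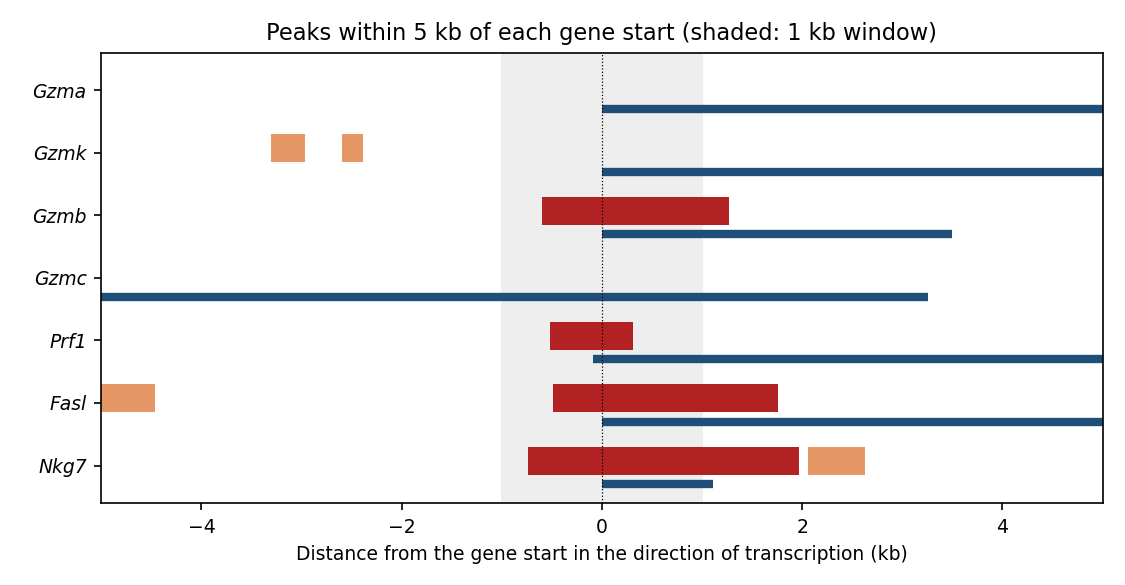
Peaks within 5000 bp of each gene start, as distance from the start in kb in the direction of transcription; red boxes overlap the gene, orange boxes do not, blue bars are the genes and the grey band is the window of 1000 bp on each side. Peaks of 1876, 834, 2254 and 2710 bp cover the starts of Gzmb, Prf1, Fasl and Nkg7, and the 2 narrow peaks of Gzmk lie outside the band.

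Prf1 encodes perforin and lies on chromosome 10 (61297751 to 61304684, plus strand). Its start peak was the narrowest of the 4, 834 bp (61297316 to 61298149), with 520 bp upstream of the start and 313 bp downstream, and only 399 bp (5.8%) of the gene were covered. Of the start peaks of all genes 13.7% were narrower than this, and their median was 1808 bp. Upstream of Prf1 lay 6 more peaks, among them 1 of 3339 bp (61279514 to 61282852) whose near edge was 14984 bp from the start, and 1 of 2354 bp beyond it. Of the 6, 5 peaks with a summed width of 7630 bp were nearer to the start of Adamts14, which encodes a secreted metalloprotease, and 1 of these covered part of Adamts14. The remaining upstream peak had 123 bp. A peak of 583 bp inside Pald1 lay 38604 bp downstream of the start. The window held 8 peaks and 9170 bp in all, above 70.6% of genes. Counting the 3 peaks nearest to Prf1 left 1540 bp, above 57.5% of genes, so the place of Prf1 among all genes depends on whether the upstream group is counted with it.

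Fasl lies on chromosome 1 (161780691 to 161788495, minus strand) and had peaks on both sides. Its start was covered by a peak of 2254 bp (161786733 to 161788986), with 1762 bp of it past the start. Upstream were 4 peaks of 631 to 1626 bp, the closest 4461 bp from the start, and downstream of the gene were 6 of 392 to 2753 bp. No other protein-coding start was nearer to any of the 11 peaks. Together they covered 16292 bp of the window, above 87.5% of genes, and with 5 peaks farther out the length nearest to Fasl was 20105 bp, above 97.5% of genes. The widest downstream peak, 2753 bp (161765693 to 161768445), covered an end of the non-coding RNA gene Gm31869 (161762401 to 161767502). With non-coding genes counted, 4 of the 11 peaks, the start peak and 3 of the upstream ones, remained nearest to Fasl.

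Nkg7 lies on chromosome 7 (43437138 to 43438246, plus strand) and is the shortest of the 7 genes, 1109 bp. Its start peak of 2710 bp (43436401 to 43439110) covered the entire gene, beginning 737 bp before the start, and 76.3% of start peaks over all genes were narrower. The window of Nkg7 had the most peaks of the 7, 18, and the longest covered length, 20720 bp, above 92.4% of genes. Most of this lay at its neighbours in a gene-dense region. Siglecg, which encodes a sialic acid-binding receptor best known from B cells, was nearest to 8 peaks of 9435 bp in sum, among them the widest of all 56 (4801 bp, 43397462 to 43402262). Etfb, which encodes a mitochondrial electron transfer subunit, was nearest to 3 peaks of 3134 bp. The start peak was the only one nearest to Nkg7, and by this length of 2710 bp the gene stood above 72.4% of genes.

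**Figure D3:**
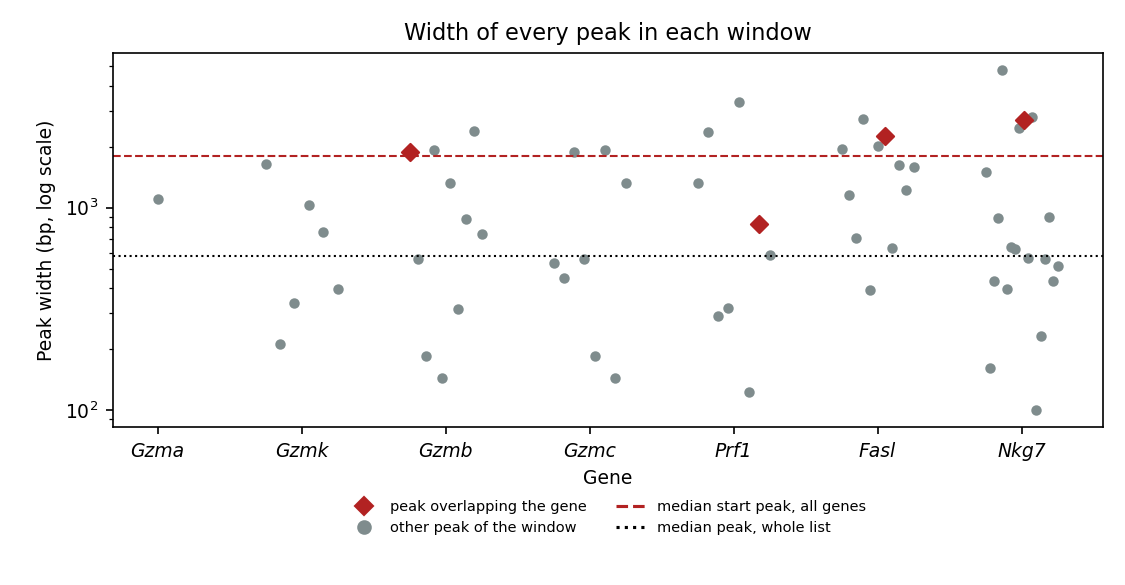
Width of every peak in the 7 windows, in bp on a log axis, with red diamonds for peaks that overlap the gene and grey points for the others; the dashed line is the median start peak of all genes (1808 bp) and the dotted line the median of the list (579 bp). The start peaks of Gzmb, Fasl and Nkg7 lie above the dashed line, that of Prf1 lies below it, and Gzma, Gzmk and Gzmc have no diamond.

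The 56 peaks of the 7 windows had a median width of 748.5 bp, against 579 bp over all peaks on chromosomes 1 to 19 and X. Of the 56, 41.1% had at least 1000 bp, near the background of 35.5%. The window medians of Gzmc (546 bp) and Gzmk (575.5 bp) lay below 579 bp. Those of Nkg7 (594 bp), Prf1 (708.5 bp), Gzmb (812 bp) and Fasl (1586 bp) lay above it, and Gzma had 1 peak of 1104 bp. The widths are no result about the 7 windows as a group. Only 4 of the 56 overlapped one of the 7 genes, 13 overlapped another protein-coding gene and 39 overlapped none. By nearest protein-coding start 29 peaks belonged to the 7 genes, 11 of them to Fasl and 10 to Gzmb, and 27 to other genes. The covered length per window had a median of 9170 bp and a range of 1104 to 20720 bp, against a median of 4618 bp over all genes (quartiles 575.5 and 10576 bp). Inside the genes the median was 399 bp over the 7, which is the value of Prf1, and 716 bp over all genes. Any covered base was found in 4 of 7, near the 60.0% of all genes, so this is no result about the 7 as a group. The covered length inside a gene cannot exceed its length, which ran from 1109 bp at Nkg7 to 10251 bp at Gzmc. Near the 50000 bp limit of the windows, the peak of 1953 bp at Fasl (45070 bp from the gene) and that of 1316 bp at Gzmc (45902 bp) fell just inside, and peaks of 315 bp at Gzmc (50051 bp) and 1104 bp at Gzmk (50508 bp, the peak of Gzma) just outside.

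**Figure D4:**
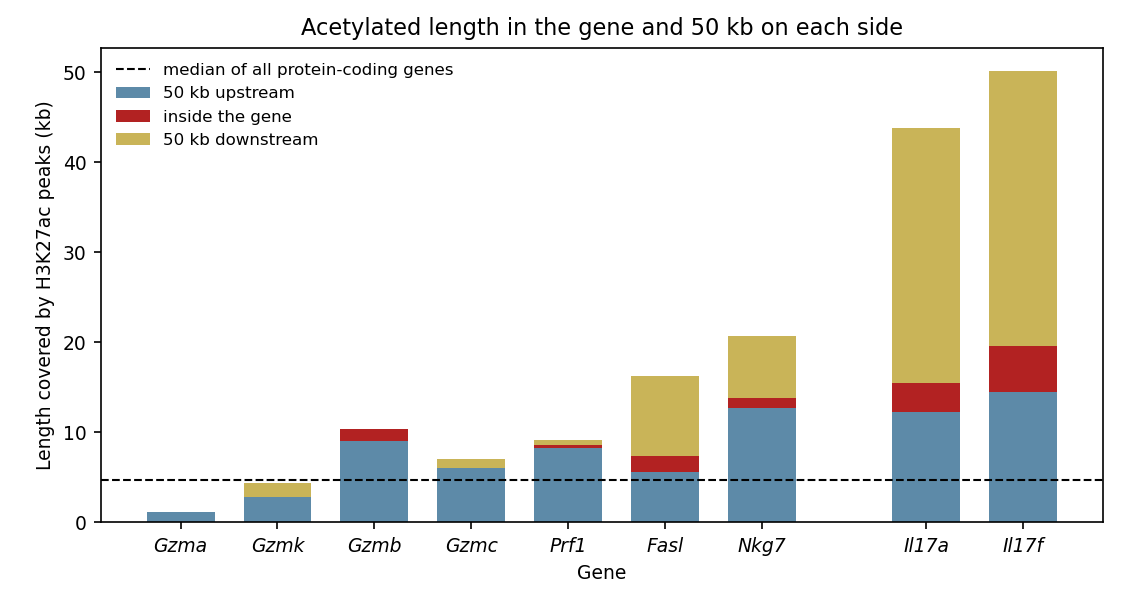
Length covered by H3K27ac peaks in each gene and the 50000 bp on each side, in kb, stacked as upstream (blue), inside the gene (red) and downstream (yellow), with the median of all protein-coding genes as a dashed line. The 7 effector genes range from 1104 bp at Gzma to 20720 bp at Nkg7, and the windows of Il17a and Il17f hold 43794 and 50205 bp.

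Set beside the cytokine genes that name these cells, the effector genes had less covered length in their windows and narrower start peaks. Il17a and Il17f had 43794 and 50205 bp in their windows, each longer than that of any of the 7, and start peaks of 4575 and 5670 bp, against 834 to 2710 bp. Peaks nearest to their own starts covered 30524 bp for Il17a and 23438 bp for Il17f, against at most 20105 bp, at Fasl. By share of the gene the order differed for Nkg7, which was wholly covered, against 89.4% of Il17a and 62.5% of Il17f. Of the other effector genes at most 36.4% was covered, at Gzmb. No test bears on these differences, and the windows of Il17a and Il17f overlap. Long domains were defined by joining peaks across gaps of up to 12.5 kb, ranking the 18748 clusters by covered length and taking the 826 past the bend of the ranked curve, at 13241 bp. Il17a and Il17f shared the cluster of rank 49. None of the 7 genes lay in a long domain, against 6.4% of all genes. This count is near the background and is no result about the 7 genes as a group. Fasl came closest, with 9 peaks and 13179 bp over a span of 49039 bp (rank 839), just under the limit. The clusters of Nkg7 and Prf1 covered 10334 and 8587 bp. The start peak of Gzmb stood alone by this rule, because the gap to its upstream group was 12725 bp. With gaps of up to 15000 bp, chosen after the data were seen, start peak and upstream group joined into 1 cluster of 10 peaks and 10326 bp over 43318 bp, still under the limit of 13280 bp, and Nkg7 alone of the 7 lay in a long domain, of 18 peaks and 20720 bp.

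The other genes of the cytotoxic pathway are given by role, as counts with no test. Among 6 other granzyme genes, the 5 of the chromosome 14 cluster and Gzmm, 0 had a start peak, against the background of 55.0%, and the missing peaks at Gzmd to Gzmg are uncertain for the reason given with Gzmc. A start peak was found at 7 of 7 genes for granule content, processing and inhibitors, 6 of 6 for granule transport and release, 6 of 6 for death ligands, receptor and adaptors, and 9 of 9 regulators with a known start. The longest window lengths of the granule group were those of Gnptab (24853 bp), which acts in tagging lysosomal enzymes, and Srgn (24581 bp), the proteoglycan core that holds granule contents. Serpinb9, which encodes an inhibitor of granzyme B, had 16761 bp, and Ctsc, which encodes the protease that activates granzymes, had 2696 bp. In the release group Stx11 (26687 bp), a fusion protein gene, and Lyst (17534 bp), a gene for lysosome trafficking, led. Tnf (57031 bp) and Cflar (40308 bp), an inhibitor of caspase 8, led the death group, and Fas had 8062 bp. Window lengths can include peaks of neighbouring genes: 14732 bp of peaks were nearest to Tnf and 15679 bp to Srgn.

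Among regulators of cytotoxic genes Bhlhe40 (43058 bp), Runx3 (40609 bp) and Stat4 (30123 bp) had the longest windows. Peaks nearest to a start covered 39975 bp for Runx3 and 15081 bp for Stat4, so the window of Stat4 also holds peaks nearer to other starts. By that measure Id2 had the most of the regulators, 84911 bp, against 9906 bp in its window, so most of this length lay outside the window. Tbx21, which encodes T-bet, had 21785 bp, and Eomes, which encodes a related T-box factor, had 4218 bp, with its nearest peak 546 bp from the start. Many of these genes also serve functions shared by all T cells, so the counts do not speak of cytotoxicity. Ctsw, Unc13d and Bhlhe40 entered by window length alone.

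Markers of other cells that could be in the culture were few, so their counts are a description. The CD8 T cell gene Cd8a had no peak within 50000 bp, and Cd8b1 had 2046 bp in its window, 599 bp of it inside the gene. Of 6 NK cell markers with a known start, 3 had a start peak (Klre1, Klrc1 and Klrk1, all NK receptor genes), against 55.0% of all genes. Within 2500 bp 4 had one, against 56.5%, and with peak midpoints 2 did, with no share of all genes given. Ncr1, the NK-defining receptor gene, had no peak in its window. The window lengths of the 7 NK markers ran from 0 bp at Ncr1 to 21702 bp at Klre1. B cell markers had a start peak in 0 of 2 genes and myeloid markers in 0 of 2. Window lengths ran from 388 to 14881 bp over 4 B cell markers and from 0 to 5086 bp over 4 myeloid markers, with Lyz2 and Adgre1 at 0. Of the 4 B cell markers 1, Cd79a, overlapped a long domain, against 6.4% of all genes. The part of such cells in the peaks of the effector genes was not tested.

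**Figure D5:**
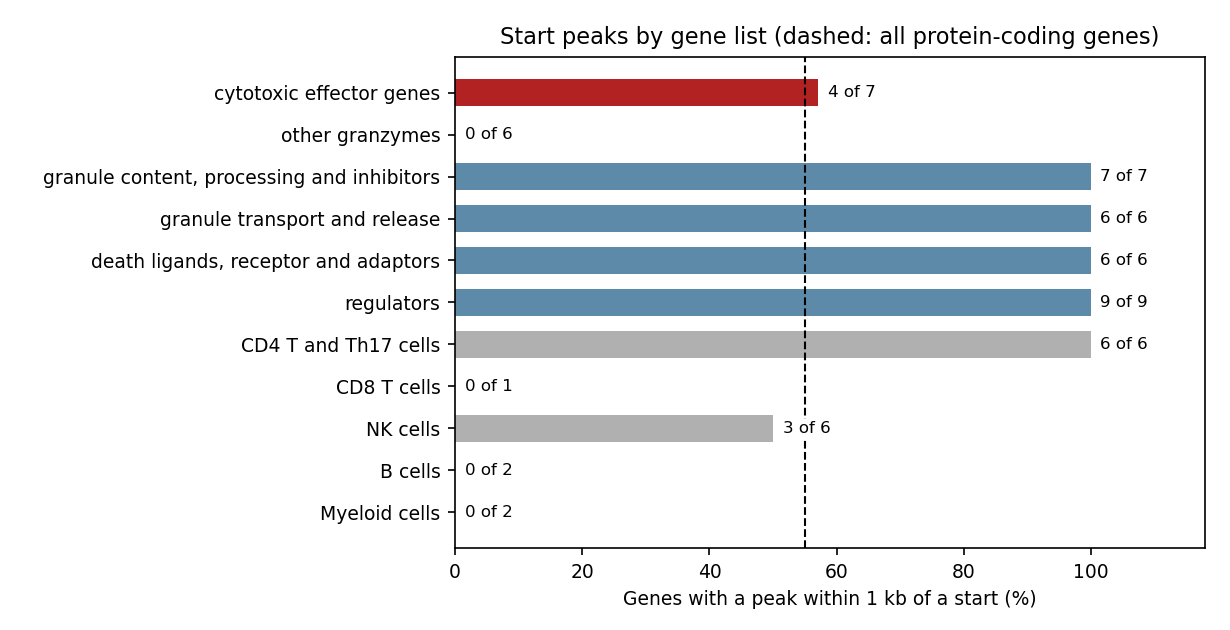
Share of genes with a peak within 1000 bp of a start, in percent, for the effector genes (red), other lists of the cytotoxic pathway (blue) and cell type markers (grey), with the count beside each bar and 55.0% of all protein-coding genes as a dashed line. The 4 of 7 effector genes lie near the dashed line, 0 of 6 other granzyme genes have a start peak, and in the 4 other pathway lists every gene with a known start has one.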

How the data were processed

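Peaks were called by the authors with the input DNA of each replicate, per the series' design text. Bowtie2 2.3.4.1, SAMtools 1.9, MACS2 2.2.6, deepTools and the build GRCm38 (mm10) are named in the submitters' processing notes. Peak thresholds, filters and any pooling: not given in the sources used here. In the deposited list each row has a chromosome, start, end and name. Starts were read as counted from 0 and are printed counted from 1.

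RefSeq (GRCm38.p6) gave 21519 protein-coding genes for the autosomes and X, after 108 with scaffold positions were left out. Starts came from RefSeq promoter sequences (17273 genes, all 7 effector genes among them). For the nearest start, both outer ends stood in where no start was known. Overlap meant at least 1 bp. Covered lengths were clipped to the window. Vamp7 and Zfp683 were listed but not used, and 1 listed marker and 1 motif are not reported here. Promoters were aligned end to end with free end gaps. Overlap and distance functions were tested on simulated peaks. Python 3.11.15, numpy 2.4.6, pandas 2.3.3, Biopython 1.88 and matplotlib 3.10.9 were used.

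The genes, lists, motifs and named genes were chosen with earlier results of these data known: all 7 effector genes, the genes nearest to their peaks, and list genes with the longest windows or none. Others named were chosen after their values were seen. Percentiles are the share of genes with a smaller value.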

Additional observations from a re-analysis of the deposited data

How the results depend on the processing

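The start call of the 4 genes also held with peak midpoints, merged peaks or outer gene ends, settings for which no share of all genes is given. The number of window peaks was 11 with flanks of 5000 bp, 27 with 20000 bp, 37 after merging peaks at most 1000 bp apart and 23 with peaks of at least 1000 bp, against 56. The median covered length was 1876 bp with flanks of 5000 bp and 3234 bp with 20000 bp, against 9170 bp. With peaks of at least 1000 bp the median distance to a peak was 11877 bp, against 0, and 15 peaks were nearest to the effector genes, against 29. With non-coding genes counted, added after seeing the data, this was 11. With midpoints 2 of 6 CD4 T and Th17 markers kept a start call, likewise without a share of all genes. Stitching at 15000 bp, also added, placed 1 gene in a long domain, against 0. Of 42 recomputed results 31 stayed within 1.5 times the value given. No paired analysis was possible because the list carries no value per library, and for the same reason no replicate could be left out. Read depth is unknown, so a missing peak may be missing for want of depth.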

Other observations

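The peak names carry running numbers that reach 71449 for 56285 peaks, so 15164 numbers (21.2%) have no peak in the list used here. Between the first and the last peak of each effector gene window, 6 numbers were without a peak, counted once: 2 at Gzmb, both also in the window of Gzmc, 2 at Prf1, 1 at Fasl and 1 at Nkg7. At Gzmb, the start peak has the number 21943 and the first peak of the upstream group 21945, so 1 number is missing in the gap of 12725 bp between them. No source used here says what the missing numbers stood for.

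The promoters of the effector genes were mostly poor in CG pairs. The 250 bases before the start held 1 such pair at Gzmb, 2 at Gzmc and at Nkg7, 3 at Gzma, 4 at Prf1, 6 at Gzmk and 7 at Fasl, against a median of 10 over 21044 promoters. Genes with and without a start peak overlapped in this count.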
